A study of Bos taurus with 9 samples.

Results

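The miR-200 family and the miR-183 cluster are miRNA best known from epithelial cells, and their levels were followed here in extracellular vesicles (EVs) of bovine follicular fluid. Members were the loci of the study's table of known and homologous miRNA named miR-141, miR-200a, miR-200b, miR-200c, miR-429, miR-96, miR-182 or miR-183, from any species and with any arm. That table holds 204 loci with a bovine name and 45 named by homology to another species, together called the tested loci here, out of 101889 loci in the deposited counts. The rule found 5 of them, 4 with a bovine name and 1 named by homology. Of the 8 names, 5 had a locus, and miR-200c, miR-96 and miR-183 are not analysed here because that table gives no locus for them. The members were bta-miR-200a, bta-miR-429, bta-miR-141, bta-miR-182 and the locus named by homology, tch-miR-200b-3p, which is called miR-200b-3p here.

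The members of the miR-200 family repress ZEB1 and ZEB2, transcription factors that silence E-cadherin, and the ZEB proteins in turn repress the miR-200 genes. The family has a pair of seeds, one shared by miR-200b, miR-200c and miR-429 and the other by miR-200a and miR-141, and the seed is the stretch near the 5′ end with which a miRNA pairs to its targets. In the mouse, miR-200b and miR-429 of the pituitary also act on ZEB1 to permit luteinizing hormone production and ovulation. miR-182 is made with miR-96 and miR-183 from a common transcript, is abundant in sensory organs, and is known to repress FOXO transcription factors. Granulosa cells, which line the follicle, have an epithelial arrangement, while the theca layer around them is mesenchymal.

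Small RNA was sequenced from the EVs of 9 pools of follicular fluid from abattoir cows, with 3 pools from small (3–5 mm), 3 from medium (6–9 mm) and 3 from large (>9 mm) follicles. Vesicles were pelleted by ultracentrifugation after filtration, so each value describes RNA in the vesicles of many follicles, healthy and atretic ones together, and the cells that released them are not known. The labels name no treatment and no ages. The ovaries came in separate collections that each gave fluid of every size, but the labels do not tie samples to collections, so no term for the collection could be fitted. Fewer vesicles carrying a miRNA and less of it in each vesicle cannot be told apart in such pools, and the p-values measure the spread between pools.

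Counts on all deposited loci summed to between 8941598 and 14664460 per sample, and counts on the tested loci to between 146617 and 3394554. Known and homologous miRNA made up 14.1% to 26.9% of the counts in small, 3.75% to 11.2% in medium and 1.43% to 5.65% in large follicle EVs. Large replicate 12 stood apart from the other large samples in this share, at 5.65% against 1.58% and 1.43%. The 5 loci together had 127 to 3582 counts per sample, or 0.0544% to 0.174% of the counts on the tested loci. Precision therefore differs widely between sizes, since 1 count is worth 0.308 normalized counts in small replicate 1 and 7.10 in large replicate 11. The miRNA associated with the gonad, miR-202, had reads on both of its loci in every sample, with a summed normalized count of 11578 to 34277. Markers of granulosa cells or of vesicles other than miRNA were not analysed here.

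All 5 loci lie on the minus strand (UMD3.1). Those of miR-200b-3p (52521990 to 52522013), miR-200a (52521336 to 52521358) and miR-429 (52520100 to 52520121) follow each other on chromosome 16 in the direction of transcription, with 631 bases between the first and the second and 1214 between the second and the third. The locus of miR-141 is on chromosome 5 (103859017 to 103859037) and that of miR-182 on chromosome 4 (94406763 to 94406786). In the RefSeq annotation of a later assembly (ARS-UCD2.0), MIR200B, MIR200A and MIR429 lie between the genes C16H1orf159 and TTLL10, MIR141 lies beside MIR200C between PHB2 and PTPN6, and MIR182 lies between NRF1 and MIR96, with MIR183 beyond. None of these miRNA genes is inside a protein-coding gene there. The loci were 21 to 24 bases long, and with 852 to 3646 counts over the 9 samples they ranked from 131 to 198 among the tested loci by total count.

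Levels are given as normalized counts, which are counts per 1000000 counts of the tested loci after the TMM correction of edgeR. The sizes were compared by the quasi-likelihood test of edgeR, fitted to all tested loci and all 9 samples at once, with Benjamini-Hochberg adjustment over all tested loci (false discovery rate, FDR, called under 0.05). In large versus small follicle EVs, 1 of the 5 members was called higher, miR-182, and 1 was called lower, miR-429, where the direction of miR-182 but not that of miR-429 turned with the samples scaled by all deposited loci. Of the tested loci, 17.7% were called higher and 24.5% lower in this comparison. Large and small samples did not overlap in normalized count for 3 of the 5 members (miR-429, miR-141 and miR-182), against 53.0% of the tested loci. The median log2 fold change was -1.33 over the 5 members and -0.18 over the tested loci. Every tested locus had a mean of at least 100 raw counts in 1 size or more, and miR-429, miR-200a and miR-141 reached it in the small follicles alone, miR-200b-3p in the small and medium and miR-182 in all sizes. Selection through the small size favours a fall in the larger ones, so the counts and the median of the members that entered in this way are a description and no support for a fall. Of the 72 tested loci that entered through the small follicles alone, 22 were called lower in large versus small.

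miR-429, which ends the chromosome 16 cluster, was lowest in large follicle EVs. Its normalized count was 186, 131 and 77.5 in the small samples (replicates 1, 2 and 4), 117, 100.2 and 47.2 in the medium samples (replicates 5, 6 and 8) and 44.6, 0 and 28.3 in the large samples (replicates 10, 11 and 12). Every large sample was below every small and every medium sample, while small and medium samples overlapped. Large replicate 10 and medium replicate 8 were almost level, and 1 count in large replicate 10 is worth 5.58 normalized counts. Group values were 131 ± 54.1, 88.3 ± 36.6 and 24.3 ± 22.6 (SD, n = 3) in small, medium and large follicle EVs. Large versus small, its log2 fold change was -2.34 (standard error 0.70, edgeR quasi-likelihood FDR = 0.0206), which is a 5.07-fold fall. Without small replicate 1, it was -2.01 with an edgeR FDR of 0.0801, and with each of the other samples left out the FDR was under 0.05. Its mean raw count was 324 in the small, 54.7 in the medium and 8 in the large samples, so the small samples alone brought it into the table. The large samples rested on 8, 0 and 16 counts, and a count of 0 in large replicate 11 allows a normalized count of up to 21.3 (3 counts, counting error only).

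miR-182, of the miR-183 cluster, was highest in large follicle EVs relative to the other tested loci. Its normalized count was 511, 221 and 130 in the small samples, 226, 314 and 228 in the medium samples and 513, 583 and 1169 in the large samples, in the same order of replicates. Large samples were above all others, although small replicate 1 and large replicate 10 were almost level. Means (± SD, n = 3) were 287 ± 199.2, 256 ± 50.7 and 755 ± 360.4 for the small, medium and large size. The log2 fold change in large versus small follicle EVs was 1.40 (standard error 0.51, edgeR quasi-likelihood FDR = 0.0440), a 2.64-fold rise that ranked 36th highest among the tested loci. This call was close to the threshold and was lost in 6 of the 9 fits that each left out 1 sample. The log2 fold change was then 1.24 without small replicate 2 (edgeR FDR = 0.132), 1.17 without small replicate 4 (edgeR FDR = 0.0808), 1.40 without medium replicate 5 (edgeR FDR = 0.0592) and 1.40 without medium replicate 8 (edgeR FDR = 0.0553). It was 1.55 without large replicate 11 (edgeR FDR = 0.0637) and 0.93 without large replicate 12 (edgeR FDR = 0.151), the sample with the highest miR-182.

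miRNA of blood cells were followed beside miR-182, as follicular fluid may hold vesicles from blood. Of miR-142, miR-150, miR-223, miR-451 and miR-486, all but miR-223 had a tested locus, which gave 4 loci, and no locus was at 0 in any sample. Of these 4 loci, 3 (miR-150, miR-486 and miR-142-5p) rose in large against small follicle EVs (17.7% of the tested loci did). The same 3 rose against medium ones, where 10.4% of the tested loci were called in either direction. miR-451 did not pass the test, at a log2 fold change of 2.04 in large versus small (edgeR FDR = 0.0623). Only the large follicles brought miR-150 to the mean of 100 raw counts, which favours a rise. With the samples scaled by all deposited loci, 1 of the 4 blood loci was called higher and 0 lower, against 76.7% lower among the tested loci. The summed normalized count of the 4 loci was 490.4 to 2492 in small, 1534 to 2932 in medium and 7144 to 15499 in large samples. Their part in the change of miR-182 was not tested.

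**Figure D1:**
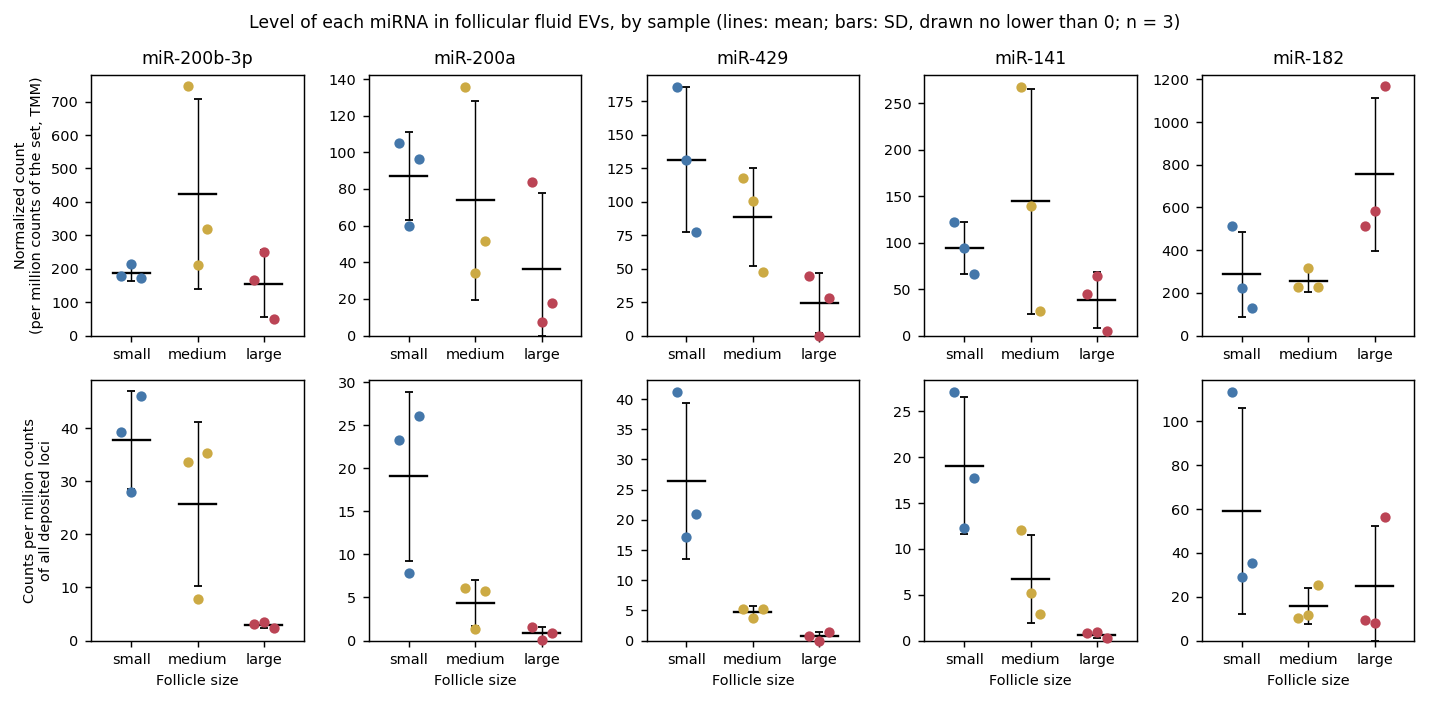
Levels of the 5 miRNA in each sample by follicle size, as normalized counts (top row, per 1000000 counts of the tested loci after TMM) and as counts per 1000000 counts of all deposited loci (bottom row). Points are samples, lines are group means and bars are SD (n = 3, drawn no lower than 0). On the top scale, the 3 large samples are the lowest for miR-429 and the highest for miR-182, whereas on the bottom scale the 4 miRNA of the miR-200 family are lower in every large than in every small sample.

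The other members of the miR-200 family did not pass the test between large and small follicle EVs. miR-200a, in the middle of the chromosome 16 cluster, had normalized counts of 105, 59.6 and 96.4 in small, 136, 34.2 and 51.4 in medium and 83.7, 7.10 and 17.7 in large samples. Its large samples spread widely and large replicate 10 lay within the range of the small ones. The log2 fold change in large versus small follicle EVs was -1.33 (standard error 0.75, edgeR quasi-likelihood FDR = 0.175), and it was -2.59 with an edgeR FDR of 0.0240 without large replicate 10. Large replicate 11 held 1 count of miR-200a, with a 95% Poisson interval of 0.0253 to 5.57 counts.

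miR-141, encoded apart from the other members beside MIR200C, shares the seed of miR-200a. Its normalized count was 122, 93.7 and 65.9 in small, 268, 139 and 26.1 in medium and 44.6, 63.9 and 5.31 in large samples. All large samples were below all small ones, by a narrow margin for large replicate 11, and the medium samples covered almost the whole range. The log2 fold change in large versus small follicle EVs was -1.53 (standard error 0.90, edgeR quasi-likelihood FDR = 0.184). Its large samples had 8, 9 and 3 counts.

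miR-200b-3p, the first of the chromosome 16 cluster, shares its seed with miR-429. Normalized counts were 177, 213 and 171 in small, 746, 210 and 318 in medium and 167, 248.7 and 49.5 in large samples. The small samples were close together, medium replicates 5 and 8 were above all others, and large and small samples overlapped. Between large and small follicle EVs its log2 fold change was -0.32 (standard error 0.58, edgeR quasi-likelihood FDR = 0.68), and it turned to 0.15 without large replicate 12.

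In large versus medium follicle EVs, 0 of the 5 members and 10.4% of the tested loci were called. At an unadjusted p under 0.05, the edgeR quasi-likelihood test had 4 of the 5 members and 32.1% of the tested loci. At an FDR under 0.05, edgeR's exact test called 1 member (miR-182) and 18.1% of the tested loci, and DESeq2 called 2 members (miR-182 and miR-429) and 25.3%. The log2 fold changes were -1.51 for miR-200b-3p, -1.08 for miR-200a, -1.75 for miR-429, -2.13 for miR-141 and 1.57 for miR-182, with edgeR quasi-likelihood FDR from 0.0590 (miR-182) to 0.357 (miR-200a). That of miR-182 was under 0.05 (edgeR FDR = 0.0474) without small replicate 4, where the log2 fold change was 1.58. Normalized counts of large and medium samples did not overlap for miR-429, by a narrow margin, and miR-182, which is 2 of 5 members against 36.1% of the tested loci. miR-141 had the 6th lowest log2 fold change of the tested loci here and miR-182 the 11th highest. Scaled by all deposited loci, the log2 fold changes were -3.11, -2.39, -2.68, -3.36 and 0.64 in the order given, and 3 of 5 members did not overlap, against 32.9% of the tested loci.

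Between medium and small follicle EVs, the quasi-likelihood test called 0 of the 5 members and 0% of the tested loci. At an unadjusted p under 0.05 it had 0 of the 5 members and 17.7% of the tested loci, and at an FDR under 0.05 edgeR's exact test called 0 members and 6.83% of the tested loci and DESeq2 0 members and 11.2%. The largest difference was that of miR-200b-3p, whose log2 fold change was 1.18 (standard error 0.57, edgeR quasi-likelihood FDR = 0.302), which was the 12th highest of the tested loci. Those of miR-141 (0.60), miR-200a (-0.24), miR-429 (-0.59) and miR-182 (-0.17) were smaller than their standard errors, which were 0.77, 0.67, 0.61 and 0.50. No member had medium and small samples that did not overlap, against 28.5% of the tested loci. When the 3 sizes were tested together for a change of any kind, 1 of the 5 members, miR-182 (edgeR quasi-likelihood FDR = 0.0434), and 33.7% of the tested loci were called. Scaled by all deposited loci, the medium versus small log2 fold changes of miR-200b-3p (-0.56) and miR-141 (-1.50) had the opposite sign, and medium and small samples did not overlap per 1000000 of all counts for 4 of the 5 members, against 59.4% of the tested loci.

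These values are relative to the other known and homologous miRNA, whose share of all counts was lower in larger follicles, and the direction for miR-182 turned with the scaling. Per 1000000 counts of all deposited loci, miR-200b-3p averaged 37.8 ± 9.17, 25.7 ± 15.4 and 2.97 ± 0.522 (SD, n = 3) for the small, medium and large size. On the same scale the means in small and large follicle EVs were 19.0 and 0.831 for miR-200a, 26.5 and 0.730 for miR-429 and 19.1 and 0.653 for miR-141. In the fit scaled by all deposited loci, these 4 miRNA were called lower in EVs of large than of small follicles, with log2 fold changes from -5.15 (miR-429) to -3.67 (miR-200b-3p), as were 76.7% of the tested loci. These per-library values did not overlap between large and small samples for 4 of the 5 members and 77.5% of the tested loci. miR-182 then averaged 59.2 ± 47.1, 15.8 ± 8.34 and 24.7 ± 27.6 (SD, n = 3) for the small, medium and large size. Its log2 fold change on this scale was -1.26 for large versus small (edgeR quasi-likelihood FDR = 0.203), opposite in sign to its rise relative to the other miRNA. With TMM over all deposited loci it was called lower (log2 fold change -2.83, edgeR quasi-likelihood FDR = 0.0361).

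This scaling moved the median log2 fold change of the tested loci to -3.06 in large versus small follicle EVs. Relative to that median, the log2 fold changes were 1.80 for miR-182, -0.61 for miR-200b-3p, -1.44 for miR-200a, -1.79 for miR-141 and -2.09 for miR-429. The order of the 5 miRNA by log2 fold change in this comparison was the same under TMM of the tested loci, under this scaling and with the loci of 18 to 30 bases, from miR-182 through miR-200b-3p, miR-200a and miR-141 to miR-429. A scaling changes all loci of a sample by the same factor, so this order is largely set in advance and is no separate support.

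**Figure D2:**
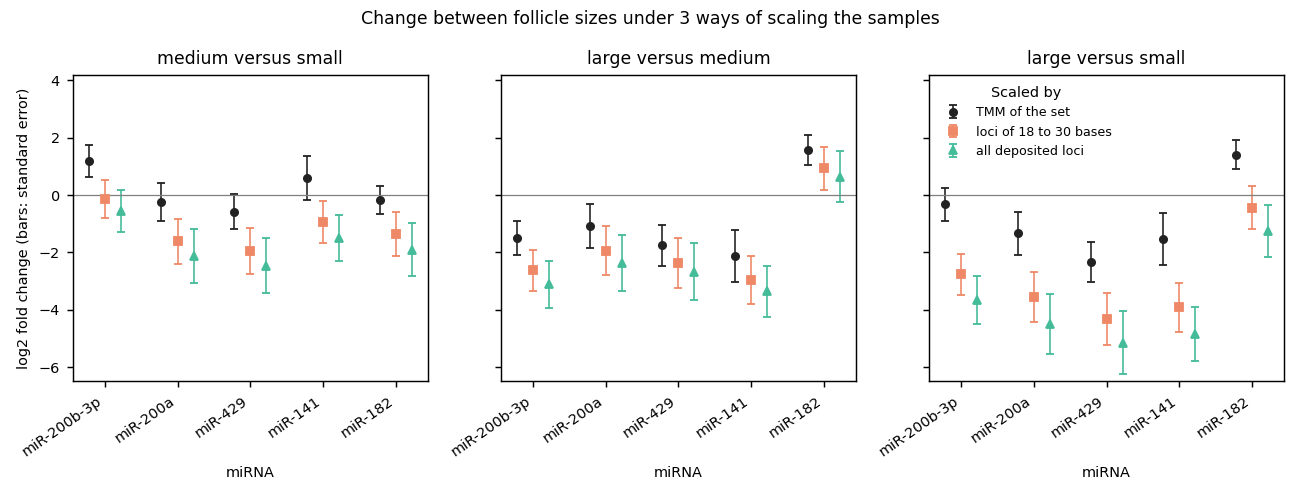
Log2 fold change of the 5 miRNA in the 3 comparisons of follicle size, with the samples scaled by TMM of the tested loci, by the summed count of deposited loci of 18 to 30 bases or by the summed count of all deposited loci. Bars are standard errors of the quasi-likelihood fit. In large versus small follicles, miR-182 is at 1.40 with TMM of the set and at -1.26 with all deposited loci, and it is above the other 4 miRNA under each scaling.

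A ratio of counts within a sample does not depend on this scaling, so the clusters were also set against each other in this way. For each count of the miR-200 family (miR-200b-3p, miR-200a, miR-429 and miR-141 summed) there were 0.867, 0.443 and 0.317 counts of miR-182 in the small samples, 0.178, 0.651 and 0.514 in the medium samples and 1.51, 1.82 and 11.6 in the large samples. All 3 large samples were above 1 and all 6 others below it. Without miR-200b-3p, the locus named by homology, the ratio was 0.543 to 1.24 in small, 0.433 to 1.82 in medium and 2.97 to 22.8 in large samples, so the large samples were still the highest but the others were not all below 1. The means (± SD, n = 3) were 0.542 ± 0.288, 0.448 ± 0.243 and 4.98 ± 5.74 for the small, medium and large size, and the large mean was 1.67 without large replicate 12. As a share of the 5 members' counts, miR-182 made up 24.1% to 46.4% in small, 15.1% to 39.4% in medium and 60.1% to 92.1% in large samples. The large samples held 61, 45 and 57 counts of the miR-200 family, and the exact binomial 95% interval of the miR-182 share was 51.9% to 67.9% in large replicate 10, the sample with the lowest share of this size. These ratios compare samples and not the amounts of the miRNA, as miRNA are captured in a library with unequal efficiency. They are given without a test, since the members were chosen with results known. Entry of miR-429, miR-200a and miR-141 through the small follicles alone favours fewer counts of the family in large samples. It thus favours a higher ratio there, so the ratios are a description.

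**Figure D3:**
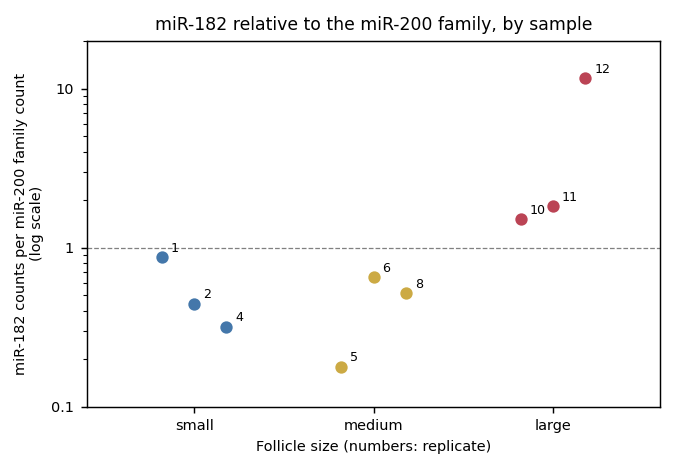
Counts of miR-182 per count of the miR-200 family in each sample, by follicle size, on a log scale. Numbers are replicates and the dashed line marks equal counts. The 3 large samples lie above the line, with replicate 12 at 11.6, and the other 6 samples lie below it.

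The makeup of the chromosome 16 cluster was compared in the same way, again without a test. miR-200b-3p took 37.9%, 52.7% and 49.5% of the cluster's counts in the small samples, 74.7%, 60.9% and 76.3% in the medium samples and 56.6%, 97.2% and 51.9% in the large samples. Every medium sample was above every small sample, while large samples reached from within the small range to the highest share of all. For the nearest values, small replicate 2 and medium replicate 6, the exact binomial 95% intervals were 48.1% to 57.3% and 52.7% to 68.8%, which overlap. miR-429 took 22.5% to 39.7% in small, 11.3% to 29.1% in medium and 0% to 29.6% in large samples, where 0 of 36 counts in large replicate 11 allow a share of up to 8.33% (3 counts). Between these miRNA of the same seed, there were 0.954 to 2.20 counts of miR-200b-3p per count of miR-429 in small and 2.09 to 6.73 in medium samples. In large replicates 10 and 12 there were 3.75 and 1.75. For the miRNA of the other seed the sizes overlapped, with 0.636 to 1.46 counts of miR-200a per count of miR-141 in small, 0.246 to 1.97 in medium and 0.111 to 3.33 in large samples.

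**Figure D4:**
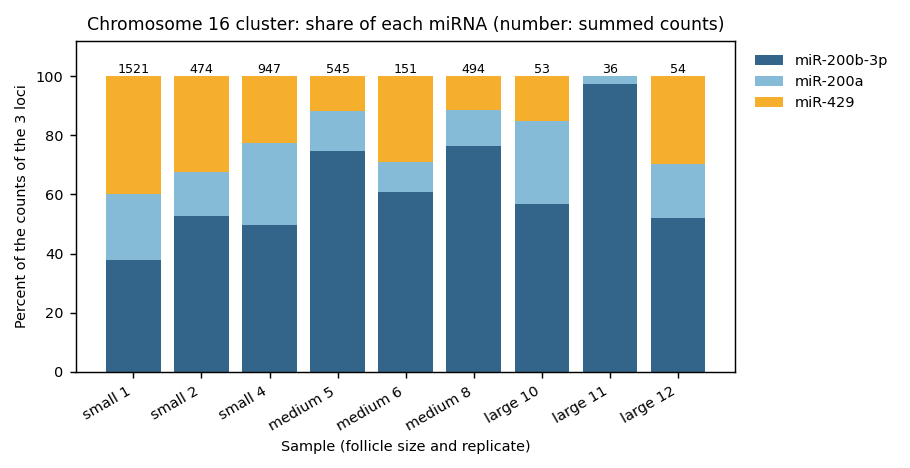
Share of miR-200b-3p, miR-200a and miR-429 in the summed counts of the 3 chromosome 16 loci, in percent, for each sample. Numbers above the bars are the summed counts. The miR-200b-3p share is 37.9% to 52.7% in the small and 60.9% to 76.3% in the medium samples, and the large samples rest on 36 to 54 counts.

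Likeness between miRNA was measured as the root mean square difference of their log2 normalized counts over the 9 samples, each centred on its own mean, so that 0 is an identical pattern. Over all 30876 pairs of the tested loci its median was 1.07. Within the miR-200 family, miR-200b-3p and miR-141 were the nearest pair (0.93), followed by miR-200a and miR-429 (1.10), while miR-200b-3p and miR-429, of the same cluster and seed, were 2.02 apart. In large replicate 11, miR-429 had 0 counts and miR-200b-3p had 35, which widens the distance between them. How much of the distances of miR-429 rests on this sample was not computed. miR-182 was 1.67 to 2.43 from the members of the miR-200 family, farther than at least 83.6% of all pairs. Pairs within the family reached into this range. miR-200b-3p and miR-429 were farther apart than 92.9% of all pairs, and miR-429 and miR-141 (1.94) than 91.2%. miR-200a and miR-141, of the same seed, were 1.37 apart.

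The locus nearest to both miR-141 (0.61) and miR-200b-3p (0.70) was bta-miR-34c, a miRNA induced by p53 that is abundant in ciliated epithelia, with mean normalized counts of 521, 1152 and 220 for the small, medium and large size. miR-200b-3p was next nearest to bta-miR-2285q (0.74) and bta-miR-2284t-3p (0.80), and miR-141 to bta-miR-1271 (0.63) and chi-miR-30d-3p (0.80). miR-429 was nearest to bta-miR-18a of the miR-17-92 cluster (0.46), chi-miR-708-3p (0.78) and chi-miR-10b-3p (0.93). Like miR-429, chi-miR-10b-3p had a normalized count of 0 in large replicate 11. miR-200a was nearest to bta-miR-378c (0.62), bta-miR-215 (0.70) and bta-miR-29c (0.74). All 3 of these were called lower in EVs of large than of small follicles, against 24.5% of the tested loci. They were picked by their likeness to miR-200a over the same samples, so their calls are no support for a fall of miR-200a. The loci nearest to miR-182 were the pair of bta-miR-181b loci (both 0.55) and efu-miR-181f (0.56). Since the bta-miR-181b loci carry the same name, their reads may have been shared out between them and their values are not independent.

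Other miRNA known from epithelia gave 11 tested loci, for 9 of 11 listed names (miR-31, miR-34a, miR-34b, miR-34c, miR-192, miR-194, miR-215, miR-375 and miR-449a, while miR-203 and miR-205 had none). In large versus small follicle EVs, 0 of these 11 loci were called higher, 3 were called lower and 8 did not pass the test, against 17.7% higher and 24.5% lower among the tested loci, with a median log2 fold change of -0.54. Scaled by all deposited loci, 9 of the 11 were called lower and 0 higher, against 76.7% lower among the tested loci. The largest fall was that of bta-miR-449a, a miRNA of multiciliated cells with the seed of miR-34, at -3.17 (standard error 0.82, edgeR quasi-likelihood FDR = 0.0101), and bta-miR-215 and bta-miR-192 were the other loci called lower. Normalized counts of bta-miR-449a were 39.0, 7.10 and 3.54 in the large samples, where 1 count is worth 5.58, 7.10 and 1.77. Only the small follicles brought it to the mean of 100 raw counts, which favours a fall. bta-miR-192, abundant in gut and kidney epithelium, fell from 6690 ± 1600 normalized counts (SD, n = 3) in the small size to 1393 ± 103 in the large, its log2 fold change being -2.26 (standard error 0.34, edgeR quasi-likelihood FDR = 0.000598). bta-miR-31 had the most counts of the list and a log2 fold change of 0.10 (edgeR quasi-likelihood FDR = 0.85). The highest log2 fold change of the list was that of bta-miR-375, known from endocrine cells, at 0.94 (standard error 0.56, edgeR quasi-likelihood FDR = 0.187).

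Mesenchymal miRNA, which mark stroma such as the theca, were also followed. Of 8 loci of miR-143, miR-145, miR-199a, miR-199b and miR-214, 4 were called lower and 0 higher in large versus small follicle EVs (chi-miR-145-3p, eca-miR-199b-3p and both bta-miR-199a-3p loci), against 24.5% lower among the tested loci, and no locus was at 0 in any sample. The eca-miR-199b-3p locus and both bta-miR-199a-3p loci had nearly equal total counts (6254, 6261 and 6321). Their reads may have been shared out between them, so these calls are not independent. The summed normalized count of all 8 loci was 7385 to 24954 in small, 3324 to 9068 in medium and 5399 to 11512 in large samples. Most of it came from bta-miR-143, with means of 15992, 5176 and 6642 for the small, medium and large size. That locus was not called in large versus small (edgeR quasi-likelihood FDR = 0.0860). Scaled by all deposited loci, all 8 were called lower in this comparison, against 76.7% of the tested loci, and miR-429 was also lower. Their part in its change was not tested.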

How the data were processed

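Small RNA of EVs was sequenced in 9 samples, 3 per follicle size, grouped by the submitters' titles. The authors trimmed adapters, aligned the reads to UMD3.1 with BWA 0.7.5a and joined the alignments of all samples into loci. The deposited values are raw counts per locus, not normalized, and the sources used here do not state what was done with reads of more than 1 matching place. Totals were 8941598 to 14664460 per sample, so 3 counts are 2.05e-05% to 3.36e-05% of a sample. Intervals and such limits cover counting error only, since PCR copies are not independent molecules.

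Members and lists were chosen with earlier results of these data known. Names of loci came from the study's supplementary table, in which a locus needs a mean of at least 100 counts in 1 size or more, and all values from the deposited counts. Named loci were the members, the listed epithelial miRNA (the 2 with the most counts, the largest rise and the largest fall), the 3 loci nearest to each member, and deposited loci within 10 kb of a member with at least 10 counts.

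The tested loci were normalized by TMM and compared with edgeR 4.0.16 (R 4.3.3, quasi-likelihood, two-sided) with Benjamini-Hochberg adjustment. Standard errors came from the fold change and its F. Likeness used log2 values with a prior count of 2. Other values were computed in Python 3.11.15 with pandas 2.3.3, numpy 2.4.6 and scipy 1.17.1, and figures drawn with matplotlib 3.10.9. On simulated large versus small counts of the 204 bovine-named and 45 homologous loci, with a log2 change of 2 in 50 loci, the test called 45 of these and 2 others. The simulation gave every locus the same spread and a mean level over all samples. It therefore does not describe how well changes of the members, with few counts in large samples, are found. The alternatives were the exact test of edgeR, DESeq2 1.42.0, its size factors, other scalings, a filter on low counts, a threshold of 0.1 on the FDR, fits restricted to 2 sizes, a robust dispersion, and leaving out each sample. No miRNA sequences were used here.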

Additional observations from a re-analysis of the deposited data

How the results depend on the processing

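Each result was recomputed under the alternatives, which gave 396 values, and 322 of them kept their direction and their side of the threshold or stayed within the spread. Numbers of members called also counted as kept when near the main number, such as 3 against 2 without large replicate 10. The filter on low counts changed no value and the FDR threshold of 0.1 used the main fit. Part of the 322 was therefore set in advance. The scaling moved most. Relative to 2 members called in large versus small follicle EVs, there were 4 with TMM over known, homologous and predicted miRNA loci together, 4 with the summed count of all deposited loci, 4 with the loci of 18 to 30 bases, 5 (all lower) with TMM over all deposited loci, and 1 in a fit of only these groups. Under those 4 scalings in that order, the log2 fold change was -1.70, -1.26, -0.44 and -2.83 for miR-182 between large and small follicles. Between medium and small follicles it was -0.81, -0.56, -0.14 and -1.66 for miR-200b-3p and -1.78, -1.50, -0.96 and -3.01 for miR-141. For large versus medium (0 members called), 1 was called by the exact test, 2 by DESeq2, 3 and 2 with TMM over all miRNA loci and with loci of 18 to 30 bases, and 2 at an FDR under 0.1. For medium versus small (0 called), TMM over all miRNA loci gave 1 and TMM over all deposited loci 2. Without miR-200b-3p, named by homology, the mean ratio of miR-182 to the miR-200 family rose to 0.852, 1.14 and 11.3 for the small, medium and large size, as it then divides by fewer counts.

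Leaving out each sample gave 1 to 3 members called in large versus small and 0 to 1 in large versus medium. The log2 fold change ranged from -0.85 to 0.15 for miR-200b-3p between large and small follicles, and between medium and small ones from -0.23 to 1.11 for miR-141, -1.01 to 0.084 for miR-200a and -0.41 to 0.54 for miR-182. Over all alternatives, the FDR in large versus small was 0.000143 to 0.0801 for miR-429 and 0.0103 to 0.599 for miR-182 (edgeR or DESeq2). For miR-182 this range covers changes in both directions. Its lowest FDR (DESeq2) went with a log2 fold change of 1.46 and its highest (edgeR, loci of 18 to 30 bases) with -0.44. The cause of these shifts was not tested. No paired analysis was possible because the sizes share no replicate numbers. Depth limits the large samples most, where the 4 miR-200 loci had 45 to 61 counts in all.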

Other observations

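Besides the members, 6 deposited loci with at least 10 counts lay within 10 kb of a member (UMD3.1), and 0 of them are in the study's tables of known, homologous or predicted miRNA. No miRNA name was assigned to them, since no genome or annotation of this build was used here beyond the positions that the study gives.

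A pair of them lay on the strand of miR-182, on its 5′ side, where the later assembly has MIR96 and MIR183. The locus at chromosome 4, 94411473 to 94411495 (23 bases long, 4686 bases from miR-182) had 102, 27 and 31 counts in the small, 17, 17 and 32 in the medium and 0, 4 and 56 in the large samples. It was highest in the same small and the same large sample as miR-182, and its count was 0% to 13.8% of that of miR-182. The locus at 94411595 to 94411627 (33 bases long, 4808 bases from miR-182) had 53, 33 and 31, 127, 162 and 118, and 168, 161 and 74 counts in the same order. Its count was 3.19% to 196% of that of miR-182, and among the large samples it was lowest in replicate 12, where miR-182 was highest.

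Within the chromosome 16 cluster, a locus of 25 bases (52521379 to 52521403) lay on the same strand with 20 bases between it and miR-200a, on its 5′ side. Most of this locus lies inside the stem loop that the study gives for bta-miR-200a, on the arm opposite the mature miRNA. Its sequence was not examined here. It had 43, 8 and 16 counts in the small, 41, 64 and 13 in the medium and 34, 26 and 4 in the large samples. In medium replicate 6 and in large replicates 10 and 11 it had more counts than miR-200a, which had 15, 15 and 1 there. Around miR-141 there were 3 loci, at chromosome 5, 103852944 to 103852977 (34 bases, 138 counts over the 9 samples), and on the opposite strand at 103856021 to 103856037 (17 bases, 605 counts) and 103868713 to 103868733 (21 bases, 60 counts).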
